A study of Homo sapiens with 4 samples.

Results

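The NBPF genes (neuroblastoma breakpoint family, also called the Olduvai domain family) were followed in RNA-seq counts of NT2 cells. The members are the 10 rows whose symbol is NBPF1, NBPF3, NBPF8, NBPF9, NBPF10, NBPF11, NBPF12, NBPF14, NBPF15 or NBPF20, out of 62696 genes counted. They were chosen by name, and all 10 passed the minimum level used for the comparisons, a mean CPM (count scaled to library size) of at least 1. NT2, or NTERA-2, is an established line of human embryonal carcinoma cells, which resemble pluripotent stem cells. There were 4 libraries: 1 from NT2 cells with an empty vector, given as wild type and called the control here, and 3 from NT2 cells labelled as a knockdown of HYDIN2, numbered 1 to 3. The count columns themselves name a LacZ control and sets of GKAP and KIF27 in place of HYDIN2. The labels do not say how the knockdown was made, whether it was a clone or a pool, or whether the replicates were separate cultures, so the spread between them may be technical.

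NBPF genes encode proteins with repeated Olduvai domains, a short protein unit formerly called DUF1220. The number of these repeats rose steeply in the human lineage, mostly through copies in 1q21.1, a duplicated part of chromosome 1 whose deletions and duplications go with changes in head size. The domain is thought to derive from PDE4DIP, which encodes the centrosome and Golgi protein myomegalin, and several NBPF genes carry a promoter that came from EVI5. What each protein does in a cell is poorly known. HYDIN2, the gene named in the labels, is itself a human-specific copy inserted among the NBPF genes of 1q21.1.

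The sequence in front of the annotated starts shows how closely the copies are related there. It does not say which genes share transcribed sequence, which is given further below. RefSeq promoter windows on GRCh38.p14 were at hand for 9 of the 10 members, all but NBPF20, and the 250 bases before the annotated start were compared. NBPF1, NBPF3, NBPF8, NBPF9 and NBPF15 share a stretch with the second annotated start of EVI5, printed here 5′ to 3′ over 67 bases. The capitals mark the letters TTTAAGGC and a motif of the kind bound by NRF1, searched as GCGC, then any base, then TGCGC. The positions are chr1:92785109-92785175 (minus strand) for EVI5, chr1:16613611-16613677 (minus) for NBPF1, chr1:21439999-21440065 (plus) for NBPF3, chr1:120414950-120415016 (plus) for NBPF8, chr1:149103562-149103628 (minus) for NBPF9 and chr1:144461670-144461736 (minus) for NBPF15.
EVI5: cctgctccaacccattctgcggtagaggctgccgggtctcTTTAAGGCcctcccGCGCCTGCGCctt
NBPF1: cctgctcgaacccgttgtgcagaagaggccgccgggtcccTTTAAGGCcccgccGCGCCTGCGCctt
NBPF3: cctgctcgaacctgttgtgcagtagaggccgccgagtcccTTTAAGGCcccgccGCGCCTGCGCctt
NBPF8: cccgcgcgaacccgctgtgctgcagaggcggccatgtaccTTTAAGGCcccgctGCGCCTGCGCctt
NBPF9: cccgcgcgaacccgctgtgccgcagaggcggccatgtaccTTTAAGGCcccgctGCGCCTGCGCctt
NBPF15: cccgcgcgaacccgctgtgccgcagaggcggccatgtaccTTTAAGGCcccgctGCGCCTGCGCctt

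In this stretch NBPF9 and NBPF15 were identical, and NBPF8 differed from each of them at 1 of 67 bases. NBPF1 and NBPF3, the copies far from 1q21.1, matched each other at 64 of 67 bases and matched NBPF9 at 57 and 56. EVI5 matched NBPF1 at 58 bases and NBPF9 at 51. Searched on both strands of the 250 bases before the start, TTTAAGGC was found in 0.678% of 35116 RefSeq windows of this length and the NRF1-type motif in 5.07%. TTTAAGGC was picked after the NBPF windows had been read, so its share of windows is given as a description, and a match is not a binding site.

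A second kind of start region was shared by NBPF12 and NBPF11, which lack both of those letter strings. These are the 80 bases before the start of NBPF12, at chr1:146938244-146938323 on the plus strand, and the matching 80 bases of NBPF11, at chr1:148152321-148152400 on the minus strand. The capital marks the only base that differs between them.
NBPF12: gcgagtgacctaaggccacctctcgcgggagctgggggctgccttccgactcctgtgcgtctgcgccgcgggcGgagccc
NBPF11: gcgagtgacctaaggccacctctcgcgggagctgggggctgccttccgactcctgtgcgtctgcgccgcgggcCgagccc

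Another kind joined NBPF10 and the second annotated start of NBPF14, whose windows matched at 99.5% over 215 aligned bases and held neither letter string. The first annotated start of NBPF14 was unlike it and matched NBPF4 at 87.0% over 227 bases. Whether NT2 cells use these annotated starts was not measured.

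The transcribed sequences are also shared, to very different degrees. The longest GENCODE 29 transcript of each member was read in windows of 100 bases, and a window was called the gene's own when no transcript of another gene held it. NBPF3 had 96.7% of its windows to itself and NBPF1 81.0%. The share was 49.4% for NBPF8, 49.3% for NBPF15, 46.6% for NBPF12, 43.4% for NBPF11 and 41.1% for NBPF9. It was lowest in the genes with the longest transcripts, at 31.8% for NBPF20, 18.97% for NBPF14 and 14.5% for NBPF10. NBPF10 shared 78.2% of its windows with NBPF14, and NBPF11 shared 41.7% with NBPF12, counting windows that further genes hold too. How reads that match several copies were counted is not given in the sources used here, so the count of any single copy is uncertain and the sum over the family is given beside it.

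All members lie on chromosome 1. On GRCh38 as annotated by GENCODE 29, NBPF1 (ENSG00000219481.11) spans 16562319 to 16613562 on the minus strand and NBPF3 (ENSG00000142794.19) spans 21440128 to 21485005 on the plus strand, both in band 1p36. NBPF8 (ENSG00000270231.5) spans 120436353 to 120467739 on the plus strand, on the short-arm side of the centromere, and its RefSeq start lies before this span. It is classed as an unprocessed pseudogene in this annotation, while the 9 other members are classed as protein coding. The members in 1q21 follow in this order. NBPF15 (ENSG00000266338.7) spans 144421386 to 144461674, NBPF20 (ENSG00000162825.18) spans 145289900 to 145405778 and NBPF10 (ENSG00000271425.9) spans 146064699 to 146144804, all on the minus strand. HYDIN2 comes next, and NBPF12 (ENSG00000268043.9) starts 24450 bases beyond its end, at 146938744 to 146996202 on the same, plus strand. NBPF11 (ENSG00000263956.8) spans 148102046 to 148152322, NBPF14 (ENSG00000270629.7) spans 148531385 to 148679751 and NBPF9 (ENSG00000269713.9) spans 149054027 to 149103561, all on the minus strand. NBPF3, NBPF11, NBPF12 and NBPF15 each overlap at least 1 annotated pseudogene on the other strand, and NBPF10 overlaps a predicted gene, AC239799.1, on its own strand. The strand setting of the counting is not given in the sources used here, so reads of these overlaps cannot be told apart.

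The targeted gene did not bear out the labels. HYDIN2 had 12 counts (0.50 CPM) in the control and 150, 112 and 11 counts (2.41, 1.88 and 0.352 CPM) in labelled replicates 1, 2 and 3. It was thus higher, not lower, in replicates 1 and 2, and every direction below is that of libraries labelled knockdown. Library totals ran from 25181737 to 62904698 counts, and the 10 members made up 0.0102% of those of the control. Of 9 pluripotency markers, 8 were well detected in every library, while ZFP42 had 2 to 4 counts. Replicates 1 and 2 were close to each other, and replicate 3 stood apart from them. Over all genes tested, 25.1% differed at least 2-fold among the labelled knockdown libraries. The median log2 difference from the control over all genes tested was 0.03, 0.05 and -0.15 in replicates 1, 2 and 3, and total-count scaling moved the last of these to 0.04.

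Summed over the family, expression was within counting error in 3 of the 4 libraries and about 2 times as high in labelled replicate 3. The summed counts of the 10 members were 2567 in the control, or 106.9 CPM (95% counting interval 101 to 113). They came to 109 CPM (105 to 113) in labelled replicate 1, 111 CPM (107 to 115) in replicate 2 and 219.6 CPM (212 to 227) in replicate 3. The intervals of the first 3 libraries overlapped, and replicate 3 lay above all of them. Relative to the control the sum was 1.02 (0.957 to 1.09) in replicate 1, 1.04 (0.971 to 1.11) in replicate 2 and 2.05 (1.93 to 2.19) in replicate 3. The mean log2 difference was 0.37 ± 0.58 (SD, n = 3), smaller than its spread, and it was 0.04 without replicate 3. With upper quartile scaling the ratios of replicates 1 and 2 were 0.988 and 0.996, on the other side of 1, and that of replicate 3 was 2.25. Intervals here and below cover counting error only and compare libraries, not conditions, since the empty vector group has 1 library. In RNA of whole cultures, fewer cells of a type and less RNA per cell cannot be told apart.

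**Figure D1:**
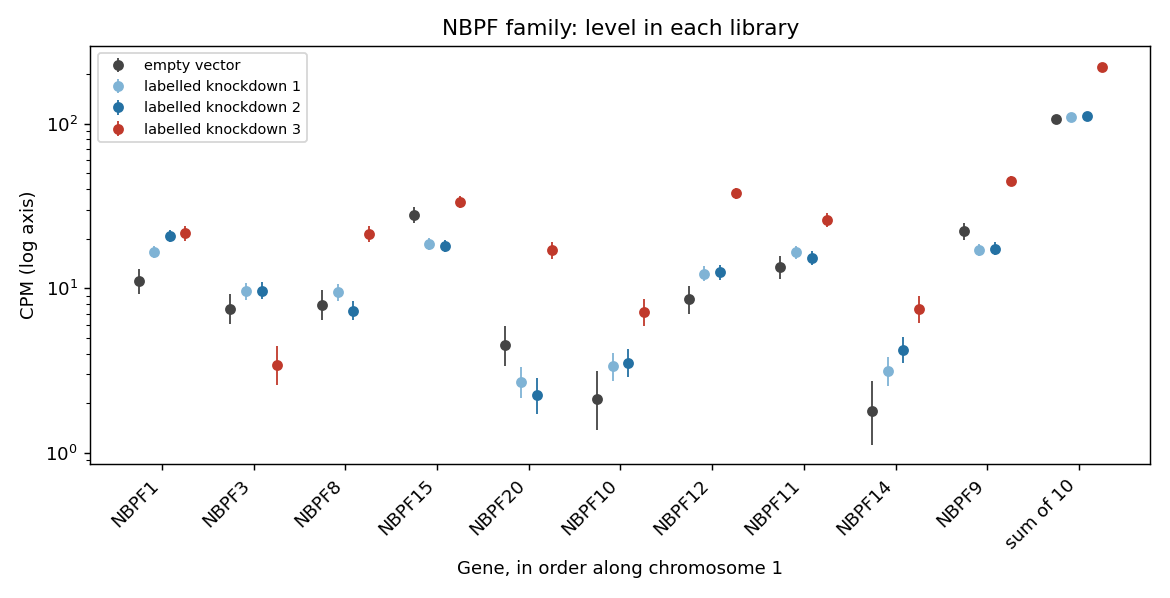
Level of each NBPF gene and of the sum of the 10 in each library, in CPM on a log axis, with genes in their order along chromosome 1; bars are 95% counting intervals. The sum is near 107 to 111 CPM in the control and labelled replicates 1 and 2 and at 219.6 CPM in replicate 3.

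Some single copies, such as NBPF8 and NBPF11, had a pattern like that of the sum, and others did not. NBPF1, found at a chromosome breakpoint in neuroblastoma and the gene that gave the family its name, had 11.04 CPM in the control and 16.6, 20.7 and 21.6 CPM in labelled replicates 1, 2 and 3. The control was the lowest, and its interval (9.24 to 13.1 CPM) did not reach those of the others. The ratios were 1.504 (1.24 to 1.84), 1.88 (1.55 to 2.28) and 1.95 (1.59 to 2.41). At 0.82 ± 0.20 (SD, n = 3), the log2 difference was larger than its spread. NBPF1 was the only member in which the counting intervals of replicates 2 and 3 overlapped.

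NBPF3, the other copy in 1p36, had 7.498 CPM in the control and 9.57, 9.65 and 3.42 CPM in replicates 1, 2 and 3. It was slightly higher in replicates 1 and 2, with ratios of 1.28 (1.00 to 1.64) and 1.29 (1.01 to 1.65), and lower in replicate 3, with a ratio of 0.457 (0.319 to 0.648). No other member was lower in replicate 3 than in the control. Its mean log2 difference was -0.14 ± 0.85 (SD, n = 3), less than the spread. NBPF2P, a pseudogene fragment beside NBPF3 on the opposite strand, was also lowest in replicate 3: it had 1.83 CPM in the control and 1.81, 1.96 and 0.448 CPM in the replicates, with a ratio of 0.245 (0.0882 to 0.593) in replicate 3. The summed counts of NBPF1 and NBPF3 gave ratios of 1.41, 1.64 and 1.35, and a mean log2 difference of 0.55 ± 0.15 (SD, n = 3).

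The 3 copies with the near-identical EVI5-like start differed from each other in level and in ratio. NBPF15, the most abundant member in the control, had 27.9 CPM there and 18.6, 18.1 and 33.3 CPM in replicates 1, 2 and 3. Replicates 1 and 2 lay below the control, at ratios of 0.667 (0.582 to 0.765) and 0.647 (0.563 to 0.744), and replicate 3 lay just above it, at 1.19 (1.04 to 1.37). NBPF9 had 22.2 CPM in the control and 17.0, 17.4 and 44.8 CPM in the replicates. It too was lower in replicates 1 and 2, at ratios of 0.767 (0.661 to 0.892) and 0.783 (0.674 to 0.911), but 2.02 times as high in replicate 3 (1.75 to 2.33). NBPF8 had 7.91 CPM in the control and 9.44, 7.30 and 21.3 CPM in the replicates. The intervals of its ratios in replicates 1 and 2 included 1, and the ratio in replicate 3 was 2.69 (2.14 to 3.42). In all 3 genes the SD of the log2 differences exceeded their mean.

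NBPF12, the NBPF gene nearest to HYDIN2, had 8.54 CPM in the control. It had 12.2 and 12.4 CPM in replicates 1 and 2 and 37.6 CPM in replicate 3. The ratios came to 1.43 (1.15 to 1.80), 1.46 (1.17 to 1.83) and 4.40 (3.57 to 5.49), the last being the highest of any member, with an interval that overlaps those of NBPF10, NBPF14 and NBPF20. NBPF11, which shares the start sequence of NBPF12, had 13.4 CPM in the control and 16.5, 15.2 and 26.1 CPM in the replicates. The ratios were smaller, at 1.23 (1.03 to 1.48), 1.14 (0.947 to 1.37) and 1.94 (1.61 to 2.35). Log2 differences averaged 1.06 ± 0.93 for NBPF12 and 0.48 ± 0.42 for NBPF11 (SD, n = 3).

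NBPF10 and NBPF14, with NBPF20 among the copies with the longest runs of Olduvai repeats, were the scarcest members in the control. NBPF10 had 51 counts there (2.12 CPM) and 208, 210 and 222 counts (3.34, 3.52 and 7.11 CPM) in replicates 1, 2 and 3. NBPF14 had 43 counts (1.79 CPM) and 195, 252 and 232 counts (3.13, 4.22 and 7.43 CPM). For both genes the control was the lowest and replicate 3 the highest. The ratios were 1.57 (1.01 to 2.53), 1.66 (1.07 to 2.66) and 3.34 (2.16 to 5.37) for NBPF10, and 1.75 (1.09 to 2.93), 2.36 (1.48 to 3.92) and 4.15 (2.60 to 6.91) for NBPF14. Since the 2 genes share most of their transcript sequence, these are not independent measurements. On the log2 scale the mean difference was 1.34 ± 0.63 for NBPF14 and 1.03 ± 0.60 for NBPF10 (SD, n = 3), larger than the spread in both.

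NBPF20, whose longest annotated transcript of 18760 nt is the longest of the family, showed the widest range. It had 108 counts (4.50 CPM) in the control and 167, 133 and 530 counts (2.68, 2.23 and 17.0 CPM) in replicates 1, 2 and 3. Replicates 1 and 2 were lower, with ratios of 0.596 (0.418 to 0.856) and 0.495 (0.341 to 0.723), and replicate 3 was higher, with a ratio of 3.77 (2.81 to 5.15). Replicate 3 was 6.91 times as high as the mean of replicates 1 and 2. The labelled libraries lay on both sides of the control, and the log2 difference averaged 0.06 ± 1.61 (SD, n = 3).

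**Figure D2:**
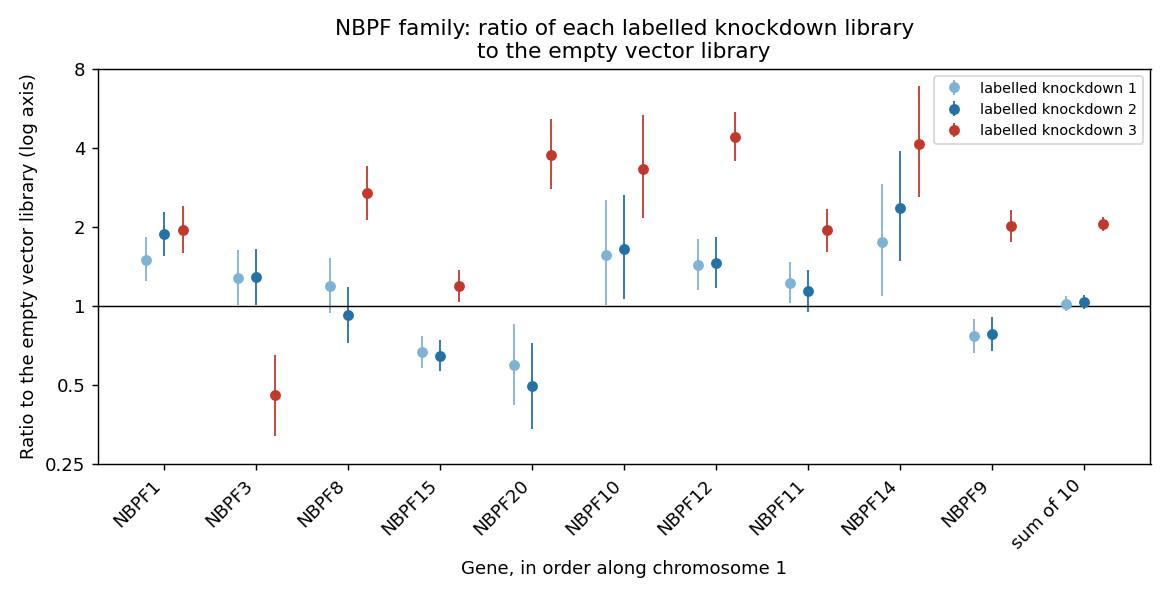
Ratio of each labelled knockdown library to the control, on a log axis, for each NBPF gene in chromosome order and for the sum; bars are 95% Clopper-Pearson intervals and the line marks a ratio of 1. Replicate 3 lies above 1 for every member except NBPF3, at 0.457, while replicates 1 and 2 lie on both sides of 1.

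The counts of members were then read against all genes. No member was 2-fold or more above the control in each labelled library, a rule met by 3.65% of 15880 genes, and none lay 2-fold below in each (2.72%). At 1.5-fold, NBPF1, NBPF10 and NBPF14 were higher in each, 3 of 10 members against 10% of all genes, and 0 were lower in each against 9.61%. Without a minimum size, NBPF1, NBPF10, NBPF11, NBPF12 and NBPF14 were higher in each, 5 of 10 against 30.1%, and 0 of 10 were lower in each against 34.2%. The median over the 10 members of the mean log2 difference was 0.50, and that over all genes tested was -0.02. The 5 members stayed higher in each library under total-count, upper quartile and DESeq2 scaling. At 1.5-fold, NBPF10 and NBPF14 also passed under each of these scalings. NBPF1 had passed narrowly, at 1.502 in replicate 1, and fell short there with DESeq2 scaling (1.49) and upper quartile scaling (1.45).

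The gap between replicate 3 and the other libraries was common in this family. NBPF8, NBPF9, NBPF10, NBPF12, NBPF14 and NBPF20 were at least 2-fold above the control in replicate 3, 6 of 10 members against 11.3% of all genes. Under total-count or upper quartile scaling these were 8 of 10, against 15.5% and 14.1%. The 6 named copies each share from 50.6% to 81.1% of their transcript windows with other NBPF genes. Counts of members here and above are therefore not counts of independent measurements. In replicate 2 only NBPF14 passed 2-fold higher (10.4% of all genes), and in replicate 1 no member did (11.3%). NBPF3 was the 1 member at least 2-fold lower in replicate 3, where 15.9% of all genes were, and no member was 2-fold lower in replicate 1 (7.5%) or replicate 2 (6.71%; NBPF20, at 0.495 before the prior count, lay at the limit). NBPF8, NBPF9, NBPF10, NBPF12 and NBPF20 were at least 2-fold higher in replicate 3 than in both replicates 1 and 2, against 6.2% of all genes, and NBPF3 was at least 2-fold lower, against 13.1%. The range across the labelled libraries had a median of 1.31 on the log2 scale over the members and 0.60 over all genes tested.

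**Figure D3:**
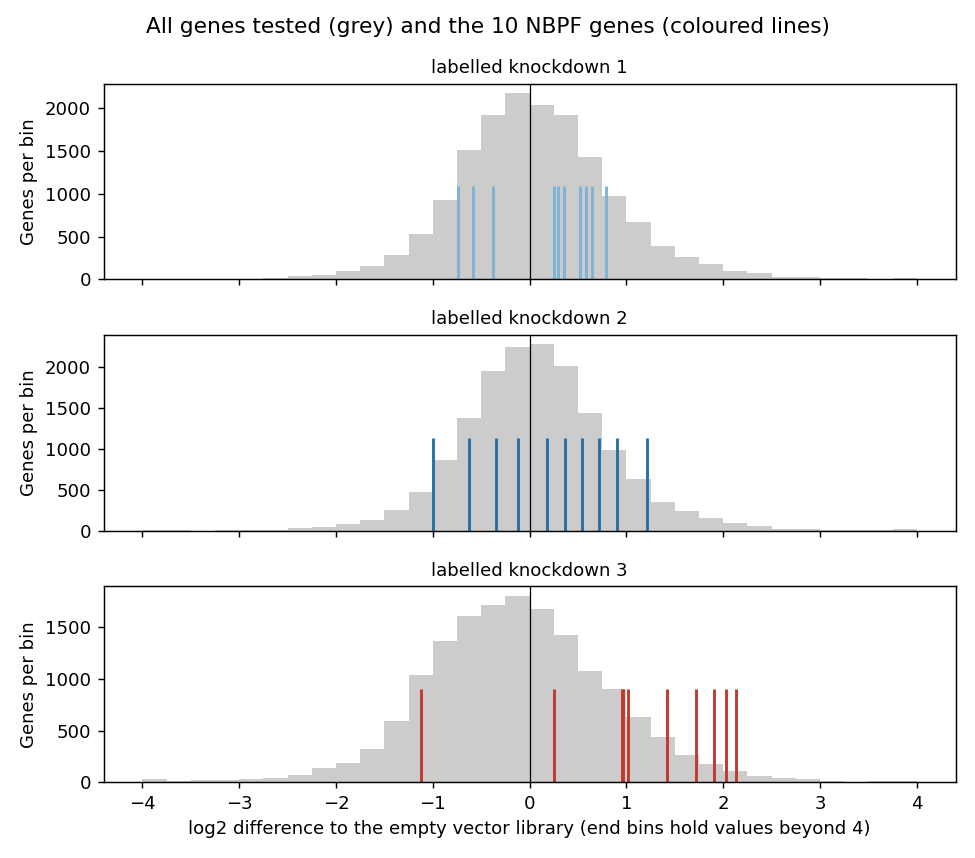
Log2 difference to the control in each labelled knockdown library: grey bars give the number of genes tested per bin and coloured lines the 10 NBPF genes. In replicates 1 and 2 the lines spread through the bulk of all genes, with medians of 0.32 and 0.27; in replicate 3 all but NBPF3 lie to the right of 0, with a median over the 10 of 1.22.

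Transcript length moved with these differences. The median longest transcript was 5883.5 nt for the members and 3519 nt for all genes tested with a length, and longer transcripts tended to higher log2 differences in each labelled library (Spearman correlation across 15485 genes of 0.35, 0.30 and 0.46 in replicates 1, 2 and 3, as a description). With smooth trends on length and GC content removed, the sum had ratios of 0.856, 0.902 and 1.48 to the control. NBPF8, NBPF12 and NBPF14 were then 2-fold higher in replicate 3, 3 of 10 against 8.58% of all genes, and NBPF3 was 2-fold lower (10.6%). NBPF9, NBPF12 and NBPF20 were 2-fold above replicates 1 and 2 in replicate 3 (5.91%). NBPF1, NBPF11, NBPF12 and NBPF14 were higher in each labelled library (26.6%), and no member was 1.5-fold higher in each (7.12%). The mean log2 differences of the 3 genes that had passed 1.5-fold became 0.53 for NBPF1, 0.24 for NBPF10 and 0.65 for NBPF14. NBPF20, at the far end of the length range, had corrected log2 differences of -1.49, -1.68 and 0.56, past 2-fold lower in replicates 1 and 2 (5.9% and 5.35% of all genes).

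Levels of lineage markers differed between the libraries too, some in replicate 3 and some in all labelled libraries. The 9 pluripotency markers summed to 6753 CPM in the control, 6681 and 6934 CPM in replicates 1 and 2 and 3833 CPM in replicate 3, a sum led by LIN28A. Of the 8 pluripotency markers tested, 5 were lower in every labelled library, against 34.2% of all genes. Among these were DNMT3B, with 795 CPM in the control and 340, 350 and 349 CPM in the replicates, and L1TD1, with 472 CPM and 241, 239 and 227 CPM. NANOG (502, 820, 817 and 323 CPM), LIN28A (2844, 3513, 3620 and 1912 CPM) and SOX2 (279, 300, 300 and 259 CPM) were higher in replicates 1 and 2 and lower in replicate 3. The 4 endoderm markers summed to 2.54, 4.93, 4.51 and 12.4 CPM in the same order, mostly GATA4 with 2.37, 4.61, 4.14 and 11.3 CPM. For the 4 mesoderm and trophoblast markers the sums were 12.5, 38.1, 34.9 and 83.8 CPM, mostly HAND1 with 8.16, 33.7, 31.4 and 71.2 CPM. MIXL1 (3.54, 3.31, 2.71 and 8.39 CPM) and TBXT (6, 0, 0 and 36 counts) were lower than the control in replicates 1 and 2. The 9 neural markers summed to 24.1, 78.9, 73.5 and 52.1 CPM. Their sum was highest in replicates 1 and 2, as was PAX6 with 0, 957, 784 and 92 counts. MAP2, with 9.16, 24.0, 22.8 and 34.5 CPM, was instead highest in replicate 3. So was TUBB3, with 1.12, 1.32, 1.52 and 2.02 CPM, while NEUROD1 had 4, 2, 0 and 0 counts. FOXA2 was at 0 counts in 3 libraries and at 2 counts in replicate 3, below the floor of 3 counts, and NEUROG2 and AFP were at 0 in the control. The part of transcript length, of these other lineages and of sequencing depth in the NBPF differences was not tested.

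The makeup of the family's counts differed between libraries even where the sum did not. In the control, NBPF15 held 26.1% of the NBPF counts (Clopper-Pearson interval 23.7% to 28.6%), against 17.1%, 16.3% and 15.2% in replicates 1, 2 and 3. This was the 1 abundant member whose share was lower in all labelled libraries by more than counting error. NBPF1 took 10.3% (8.71% to 12.1%) in the control, 15.2% and 18.7% in replicates 1 and 2 and 9.83% in replicate 3. NBPF12 took 7.99% (6.56% to 9.61%), then 11.2%, 11.2% and 17.1%, so its share was above that of the control in each labelled library. NBPF9 took 20.8% in the control and 20.4% in replicate 3, against 15.6% and 15.7% in replicates 1 and 2. NBPF3 took 7.01%, 8.77%, 8.71% and 1.56%, and NBPF20 took 4.21%, 2.46%, 2.01% and 7.73%. The 8 members from 1p11 to 1q21 together had ratios to the control of 0.938 (0.873 to 1.01), 0.910 (0.846 to 0.979) and 2.20 (2.05 to 2.36).

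**Figure D4:**
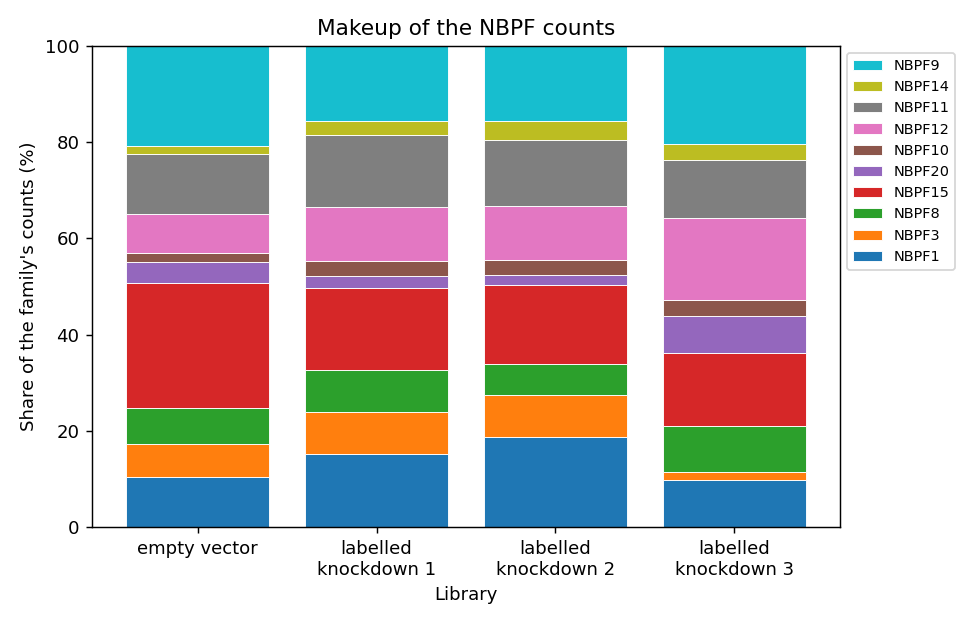
Share of the family's summed counts taken by each NBPF gene in each library, in percent, stacked in chromosome order from NBPF1 at the bottom to NBPF9 at the top. NBPF15 holds 26.1% in the control and between 15.2% and 17.1% in the others, NBPF12 goes from 7.99% in the control to 17.1% in replicate 3, and NBPF3 holds 1.56% there.

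Levels were compared between members per length, as CPM per kb of the longest annotated transcript. NBPF15 led in the control with 5.93, followed by NBPF9 with 3.81, NBPF11 with 2.44, NBPF1 with 1.86, NBPF3 with 1.70, NBPF8 with 1.48 and NBPF12 with 1.21. NBPF20, NBPF14 and NBPF10 were lowest, at 0.240, 0.166 and 0.163. In the labelled libraries the means were 4.95 ± 1.84 for NBPF15, 4.53 ± 2.73 for NBPF9, 3.51 ± 1.08 for NBPF11, 3.31 ± 0.45 for NBPF1 and 2.94 ± 2.07 for NBPF12 (SD, n = 3). These spreads overlap, but the genes share libraries, and within each library NBPF15 was above NBPF11, NBPF1 and NBPF12. NBPF8 (2.38 ± 1.42) and NBPF3 (1.71 ± 0.811) followed. NBPF14, NBPF20 and NBPF10 were again lowest, with 0.457 ± 0.207, 0.389 ± 0.447 and 0.357 ± 0.163. NBPF12 ranked 7 in the control and 3 in replicate 3, while NBPF3 ranked 5 and 8. NBPF9 ranked above NBPF15 in replicate 3, but over the union of annotated exons NBPF15 was first in every library, and NBPF1, with many alternative exons, ranked 7 in the control in place of 4. The 3 lowest genes also have the smallest shares of transcript windows of their own.

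Grouped by start sequence, the pair NBPF10 and NBPF14 summed to 3.92 CPM in the control and 6.47, 7.74 and 14.5 CPM in the replicates, and NBPF11 and NBPF12 to 22.0, then 28.7, 27.7 and 63.7 CPM. NBPF8, NBPF9 and NBPF15 summed to 58.0, then 45.1, 42.7 and 99.4 CPM. With NBPF1 and NBPF3 added, all 5 genes with the EVI5-like start had ratios of 0.931 (0.861 to 1.01) and 0.955 (0.884 to 1.03) in replicates 1 and 2, with intervals that include 1, and 1.63 (1.502 to 1.76) in replicate 3. Replicates 1 and 2 thus lay above the control for the first 2 groups and below it for NBPF8, NBPF9 and NBPF15 but not clearly for the 5 together, while replicate 3 was highest in each. This grouping was made after the values were seen and has no test. The sequence shared by NBPF10 and NBPF14 lies inside the annotated span of NBPF14 and may not be a promoter.

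Of the 14 other rows with an NBPF symbol, 7 had no count in any library and 2 passed the minimum level. NBPF26, a protein-coding copy beside the centromere, had 19 counts (0.791 CPM) in the control and 121, 113 and 109 counts (1.94, 1.89 and 3.49 CPM) in the replicates. Relative to the control it stood at 2.45 (1.23 to 5.49), 2.39 (1.19 to 5.37) and 4.41 (2.19 to 9.92). It was thus at least 2-fold higher in each labelled library, as were 3.65% of all genes tested. With 0.791 CPM in the control, it passed the minimum level only through the labelled libraries. NBPF2P was the other row that passed. NBPF19, a copy in 1q21 below the minimum level, had 2 counts in the control and 28, 14 and 19 in the replicates. NBPF4 had 0, 10, 10 and 4 counts, an NBPF25P row had 7, 62, 41 and 25, and NBPF6 had none. With the prior count, NBPF19, NBPF4 and this NBPF25P row also passed 2-fold higher in each labelled library, but on few counts and below the minimum level. No share over all genes is given for rows below that level. NBPF4 had 0 counts in the control, so its value rests on the prior count. Ratio intervals included 1 for NBPF19 in replicates 1 and 2 (0.821 to 228 and 0.362 to 127). They also did for NBPF25P in replicates 2 and 3 (0.750 to 10.6 and 0.797 to 13.0). Adding all 14 rows left the mean log2 difference of the sum at 0.39.

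The genes from which NBPF parts derive were followed beside the family. PDE4DIP, the source of the Olduvai domain, lies next to NBPF9 and had 50.3 CPM in the control and 53.2, 48.8 and 56.7 CPM in replicates 1, 2 and 3, a mean change on the log2 scale of 0.07 ± 0.11 (SD, n = 3). EVI5, the source of the promoter, had 27.3 CPM and 27.7, 29.5 and 37.8 CPM, with a ratio of 1.38 (1.21 to 1.59) in replicate 3 and a mean log2 difference of 0.20. Removing the trends on length and GC content turned both directions, to -0.53 for PDE4DIP and -0.26 for EVI5. CDK5RAP2, a centrosome gene related to PDE4DIP, was higher in each labelled library, with 100.2 CPM against 177, 180.0 and 165 CPM and a mean log2 difference of 0.80 ± 0.07 (SD, n = 3).

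Other duplicated genes gave a mixed picture. Of 14 genes listed as duplicated neighbours in and around 1q21.1, 12 were tested. Of these 12, 7 were higher and 3 lower in each labelled library at any size, with a median of 0.58. Over all genes tested, 30.1% were higher and 34.2% lower in each, with a median of -0.02. NOTCH2NLA, NOTCH2NLB and NOTCH2NLC, which amplify Notch signalling in cortical progenitors and alternate with NBPF genes along 1q21.1, were among the higher ones, and NOTCH2NLR was too low to test. NOTCH2NLC had 4.33 CPM in the control and 7.97, 8.29 and 21.13 CPM in the replicates, while NOTCH2NLA had 1.42 CPM and 4.06, 4.05 and 4.39 CPM. FAM72B, FAM72C and FAM72D were the 3 lower ones, and the 4 FAM72 genes summed to 58.9, 44.5, 42.9 and 28.2 CPM. Of 20 single-copy genes of 1q21.1, 15 were tested, with 4 higher and 3 lower in each library, beside the same shares over all genes, and a median of 0.17. Among duplicated families elsewhere, the 20 NPIP genes summed to 35.99, 24.2, 20.7 and 45.1 CPM, and the 28 GOLGA6 and GOLGA8 genes to 14.6, 11.1, 11.7 and 18.2 CPM, each highest in replicate 3 and lowest in the first 2 replicates. Only 7 NPIP genes and 2 GOLGA genes, GOLGA8A and GOLGA8B, reached the minimum level. SRGAP2 and its copies summed to 76.7, 98.1, 87.1 and 130 CPM, led by SRGAP2 itself with 58.6, 62.5, 55.3 and 101 CPM. The copies SRGAP2B (4.42, 10.8, 9.25 and 8.23 CPM) and SRGAP2C (13.1, 23.8, 22.1 and 19.5 CPM) were instead highest in replicate 1. SRGAP2D was too low to test.

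The genes nearest to the family sum in pattern were sought by the largest deviation of their 3 log2 differences from those of the sum. They were DCAF1 (deviation 0.04), TMEM104 and ZNF852 (0.06 each), MLLT1 and ZDHHC14 (0.07 each). DCAF1, a substrate receptor of a ubiquitin ligase, had 47.9, 49.5, 51.0 and 95.9 CPM in the control and replicates 1, 2 and 3, and MLLT1, a chromatin reader of the elongation machinery, had 43.9, 45.4, 43.9 and 86.1 CPM. This likeness rests on 3 libraries against 1 shared control, and all 5 genes are alike in being higher in replicate 3.

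The models across all genes called no member. The quasi-likelihood test of edgeR, with Benjamini-Hochberg adjustment, called 0 of 26029 genes and so 0 of 10 members. At an unadjusted p under 0.05 it gave 11.6% of all genes and 1 member, NBPF1, which did not pass with RLE scaling or in limma voom, where no member did. The Wald test of DESeq2 called 1.52% of 16634 genes and 0 members, and at an unadjusted p under 0.05 it gave 6.48% of all genes and 2 members, NBPF12 and NBPF14. With 1 empty vector library, these tests take their spread from the labelled libraries alone.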

How the data were processed

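RNA was depleted of ribosomal RNA and made into strand-specific libraries, per the labels' protocols. The authors deposited raw counts per gene, 1 table per library; STAR 2.7.11b, featureCounts 2.0.6, DESeq2 and GRCh38 are named in the submitters' processing notes. Strand setting, annotation release and treatment of multi-mapping reads are not given in the sources used here. Count columns carry other names than the labels, so each table's sample comes from the series record. Totals of 25181737 to 62904698 counts set the precision. Counts were scaled to CPM with TMM factors (edgeR 4.0.16) and each labelled library was compared with the control as log2 CPM with a prior count of 2; edgeR and DESeq2 1.42.0 (limma 3.58.1 as an alternative) were fitted over all genes for counts of calls. Between 65.2% and 68.0% of nonzero counts were even, as when both reads of a pair count, so 95% exact Poisson and Clopper-Pearson intervals used counts divided by 2. Positions and lengths came from GENCODE 29, promoter windows from RefSeq. The named genes are the members, NBPF rows with a mean CPM of at least 1, PDE4DIP, EVI5, HYDIN2, HYDIN and the 5 genes nearest to the sum. Other genes belong to the listed families, and NBPF4, NBPF6, NBPF19 and NBPF25P to the list of other NBPF rows. Members and lists were chosen with earlier results of these data known. Scripts were tested on simulated data. HYDIN, whose ratios are given beside those of HYDIN2, had 5.62 CPM in the control and 8.67, 8.06 and 4.26 CPM in the labelled replicates.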

Additional observations from a re-analysis of the deposited data

How the results depend on the processing

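No paired analysis was possible because there is a single control library. Under other scalings, prior counts, omitted libraries and trend removal, the mean log2 differences of the 10 members moved by less than 1 SD between replicates in 87 cases and by more in 3, which were NBPF1 (0.53), NBPF10 (0.24) and NBPF14 (0.65) with length and GC trends removed. Replicate 3 widens that SD: without it NBPF3 went from -0.14 to 0.36, NBPF9 from 0.09 to -0.37 and NBPF20 from 0.06 to -0.87, turning direction, and NBPF8 from 0.52 to 0.07. Trend removal also moved the summed 1p36 members to 0.32 and the 1p11 to 1q21 members to -0.02. The mean log2 difference of the family sum ran from 0.04 without replicate 3 to 0.54 without replicate 1, and was 0.06 with trends removed; the 1p11 to 1q21 members gave -0.11 without replicate 3, against 0.30. Members 2-fold higher in each library numbered 0, from 0 to 1 with a library left out (NBPF14 without replicate 1). Over all genes, 580 were 2-fold higher and 432 lower in each library; these were 1605 and 1035 at a minimum mean CPM of 0.1, 377 and 254 at 5, and from 606 to 1515 and from 489 to 873 with a library left out, the highest without replicate 3. Trend removal gave 268 lower. DESeq2 called 253 genes where edgeR called 0; edgeR fits with a labelled library left out were not run. NBPF10 and NBPF14, at 51 and 43 counts in the control, are limited by depth.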
